A study of Arabidopsis thaliana with 6 samples.

Results

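NTT-GFP sites that were found in both ChIP libraries of the *Dex:NTT-GFP* line are described here. A site was a replicate 1 peak that shared at least 1 bp with a replicate 2 peak, and 6439 of the 16167 replicate 1 peaks were such sites (39.8%, 95% exact Clopper-Pearson interval 39.1 to 40.6%). Seen from the smaller list, 6511 of the 7447 replicate 2 peaks took part in them (87.4%, 86.7 to 88.2%). By the nearest transcription start site (TSS), 5315 sites were assigned to 4877 target genes, among them 4350 of the 27444 protein-coding nuclear genes (15.9%, 15.4 to 16.3%). Intervals cover counting error only.

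The series holds 6 libraries of *Arabidopsis thaliana*, accession Col-0, from 7-day-old whole seedlings. NTT-GFP was expressed from the dexamethasone (Dex)-inducible *Dex:NTT-GFP* transgene, whose activator is under the cauliflower mosaic virus 35S promoter, and both NTT libraries came from seedlings of this line kept in 1 µM Dex for 8 h before fixation with 1% formaldehyde. Chromatin of about 300 bp was precipitated with an anti-GFP antibody, and 10 ng of DNA was sequenced as single-end reads of 50 bp. The NTT inputs have no peak list of their own here, no ChIP from untagged or uninduced plants was analysed here, and the TT1 libraries of the series were not used. Since that promoter is active in most tissues and whole seedlings were pooled, the sites are those of induced NTT-GFP over mixed tissues and not of NTT in its own cells. The labels do not say whether the 2 libraries came from separate plants, while the methods of the study describe independently treated pools. With 1 group and no contrast between groups, no p-value is given.

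NTT (NO TRANSMITTING TRACT) belongs to the WIP proteins, plant C2H2 zinc finger transcription factors. In the pistil it is required for the transmitting tract, the tissue through which pollen tubes grow, and in the embryonic root it acts with WIP4 and WIP5 in the cells from which the distal stem cells form. In ChIP-seq, a summit is the position in a peak where the most fragments overlap, and the fold enrichment is the ratio of ChIP signal to the local background at that position.

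Sequences at the summits are shown for the 10 repeated sites of best mean rank and 2 genes that the study names with NTT binding. Also shown are the longest GA repeat outside transcripts and 2 promoter sites with unlike ranks in the 2 libraries. WRKY60 had the higher rank in replicate 1 and FBS1 in replicate 2. FBS1 was chosen among promoter sites with CACGTG in the bases printed, so its G-box is not a result. Each was read 5′ to 3′ on the strand of the nearest gene from the TAIR10.1 assembly, as 101 bases around the replicate 1 summit. Where these held bases of an untranslated region (UTR), 30 bases were taken instead, centered on the motif nearest to the summit within 100 bp. Such short stretches show a motif by choice and cannot be set against the 101-base windows. Capitals mark 5 motifs on either strand. The GA repeat was searched as GAGAGAG and the core of the G-box as ACGTG. The W-box was searched as TTGAC followed by C or T, the GCC box of ethylene response factors as GCCGCC, and the TCP element as TGGGCC. Where they overlap, the capitals run together.
GLT1 (chr5:21700284-21700313, plus strand): cgcctccttttcGCCGCCtgcttcgctccg
LBD37 (chr5:26903895-26903924, minus strand): acacatgacacaGAGAGAGAGcccctttgg
AT3G49810 (chr3:18478406-18478506, minus strand): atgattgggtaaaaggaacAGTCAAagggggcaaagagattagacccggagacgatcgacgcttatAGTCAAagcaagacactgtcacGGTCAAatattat
AT1G54740 (chr1:20430575-20430675, plus strand): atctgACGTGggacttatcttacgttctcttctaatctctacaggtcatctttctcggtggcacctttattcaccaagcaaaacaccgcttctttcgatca
PYL5 (chr5:1608388-1608488, plus strand): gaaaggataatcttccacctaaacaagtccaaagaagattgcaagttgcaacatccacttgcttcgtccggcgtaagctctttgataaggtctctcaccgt
TEM1 (chr1:8984992-8985092, minus strand): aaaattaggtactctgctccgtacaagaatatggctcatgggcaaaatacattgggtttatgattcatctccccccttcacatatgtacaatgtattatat
AT1G01490 (chr1:182292-182321, minus strand): ctactgatCTCTCTCTCTCtgcatgcatct
CDPK2 (chr1:13203672-13203772, plus strand): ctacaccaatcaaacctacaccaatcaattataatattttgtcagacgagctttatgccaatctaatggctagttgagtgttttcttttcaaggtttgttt
DMR6 (chr5:8376437-8376537, plus strand): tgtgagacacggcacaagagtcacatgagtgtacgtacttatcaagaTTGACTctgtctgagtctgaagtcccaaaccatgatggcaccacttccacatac
AT2G39360 (chr2:16440548-16440648, minus strand): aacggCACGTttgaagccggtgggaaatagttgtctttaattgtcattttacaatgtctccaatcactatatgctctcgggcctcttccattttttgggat
WSIP2 (chr3:5372244-5372273, minus strand): cCACGTCTCTCTCTCTCTCttctccaaagt
KAN (chr5:5411550-5411579, minus strand): acacatatatCTCTCTCTCttacctgtttt
AT3G55960 (chr3:20763084-20763184, minus strand): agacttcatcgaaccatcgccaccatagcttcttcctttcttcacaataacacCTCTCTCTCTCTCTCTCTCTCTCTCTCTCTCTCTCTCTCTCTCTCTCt
WRKY60 (chr2:10628978-10629078, plus strand): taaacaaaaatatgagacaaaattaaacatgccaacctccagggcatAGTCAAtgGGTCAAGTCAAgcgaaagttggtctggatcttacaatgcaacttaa
FBS1 (chr1:22627977-22628077, plus strand): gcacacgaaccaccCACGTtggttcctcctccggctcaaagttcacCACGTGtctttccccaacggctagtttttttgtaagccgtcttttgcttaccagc
GLT1 encodes NADH-dependent glutamate synthase, LBD37 a repressor of nitrogen-responsive and anthocyanin genes, PYL5 an abscisic acid (ABA) receptor, and DMR6 an oxygenase that inactivates salicylic acid. WSIP2 is a TOPLESS-family co-repressor and KAN sets organ polarity. A GA repeat lay in the bases shown at LBD37, AT1G01490, WSIP2, KAN and AT3G55960, read as CT on the gene strand in the last 4. GLT1 and AT1G54740 had GAGAGAG outside the bases shown but within 100 bp of the summit. AT3G49810 and WRKY60, which encodes a WRKY factor of pathogen responses, had 3 W-boxes each. FBS1, a stress-induced F-box gene, had the G-box for which it was chosen. Promoter sites with a larger gap towards replicate 2, at LBD41 (ranks 6022 and 545) and EDA12 (ranks 5547 and 85), had no G-box core in their 101 bases. The next promoter site after WRKY60, at FRS2, had none of the 5 motifs there. Among the 10 strongest sites, those at PYL5, TEM1 and CDPK2 had none of the 5 motifs in the 101 bases shown. Within 100 bp of the summit, PYL5 had GAGAGAG and CDPK2 had GCCGCC and TGGGCC, while TEM1 still had none.

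The strongest sites stood near the head of both lists. The GLT1 site ranked 2 of 6439 by fold enrichment in both libraries, with 16.2 in replicate 1 and 8.27 in replicate 2, and its summit lay in a UTR exon at +92 bp from the TSS. The LBD37 site ranked 1 in replicate 1 (17.1) and 16 in replicate 2 (7.71). It lay at +2597 bp, in a UTR exon of LBD37 itself but beyond the window of −1500 to +1000 bp that defines a target. Another 5 of the 10 sites with the best mean rank belonged to target genes, with both ranks within the first 40 sites. These were PYL5 (−550 bp, 15.7 and 7.49), AT3G49810 (ARM-repeat protein, −1424 bp, 15.7 and 7.82), AT1G54740 (−144 bp, 15.1 and 7.94), AT1G01490 (+191 bp, 15.2 and 7.57) and AT2G39360 (a protein kinase, −54 bp, 15.4 and 7.33). At AT2G39360 the summits of the 2 libraries were 1 bp apart. PYL5 had a second site at +56 bp (11.7 and 4.76).

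Of these 10 sites, 4 had no target gene, because the nearest TSS was out of range. Besides LBD37 they were near TEM1, which represses flowering (−1728 bp, 14.9 and 7.88), CDPK2, a calcium-dependent protein kinase (−1623 bp, 16.2 and 7.14), and DMR6 (−2272 bp, 15.4 and 7.39). TEM1 was the nearest gene of 5 sites in all, at +281, −569, −1728, −2857 and −4853 bp. Over all sites, 1124 had no target.

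Non-coding genes were also among the targets. Best placed were the lncRNA gene AT3G02605 (+727 bp, 14.7 and 7.78) and AT4G39838 (−182 bp, 14.6 and 7.70). No annotated gene covered the AT3G02605 summit, which thus lay beyond the end of that gene. In all, 335 of 3480 lncRNA genes (9.63%), 30 of 625 tRNA genes (4.80%), 23 of 326 miRNA genes (7.06%) and 25 of 3917 pseudogenes (0.638%) were targets, beside 15.9% of protein-coding genes. The miRNA genes included MIR159a (−417 bp, 9.66 and 6.57), MIR169a (−137 bp, 12.4 and 4.73), MIR167a (−301 bp, 9.16 and 5.24) and MIR156c (−421 bp, 10.2 and 4.39), whose products act on mRNAs of MYB, NF-YA, ARF and SPL transcription factors. MIR168a and MIR168b, which control the Argonaute that miRNAs work through, were both targets.

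Most target genes had a single site: 4461 had 1, 394 had 2 and 22 had 3, the highest number. BT1, a BTB and TAZ domain protein, had 3, at +35 bp (12.7 and 6.82), −1476 bp (13.9 and 5.09) and +979 bp (5.33 and 4.10). AT2G36320, an A20/AN1 zinc finger gene, had 3 as well, at −537, +61 and +448 bp, and the last of these lay in an intron (10.5 and 5.04). AT5G11970 had sites at −393 bp (12.2 and 5.68), +140 bp and −850 bp (4.36 and 4.99). AT1G01490 had 3 in range, but its 2 weaker ones met the same replicate 2 peak.

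**Figure D1:**
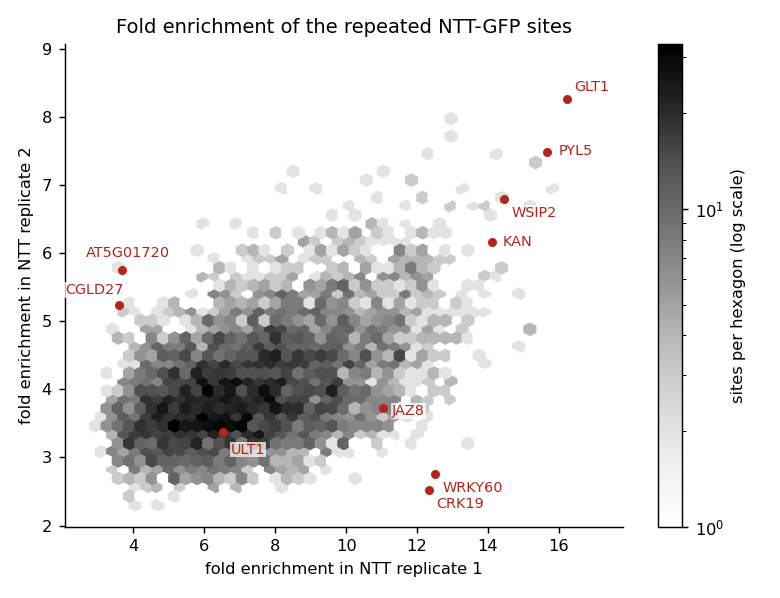
Fold enrichment of each of the 6439 sites, with replicate 1 on the x axis and replicate 2 on the y axis. Shading gives the number of sites per hexagon on a log scale, and red points mark single sites of genes described in the text. GLT1 is at the upper right at 16.2 and 8.27, while WRKY60 and CRK19 are at 12.5 and 12.3 on the x axis with low replicate 2 values.

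The 2 libraries placed their summits close together. Summits were a median of 24 bp apart (quartiles 10 and 49 bp), 97 coincided, and 89.0% were within 100 bp. The WSIP2 site was one of those with identical summits (+40 bp, 14.5 and 6.80, ranks 50 and 92). The shared stretch had a median of 201 bp, and at 98.8% of sites it covered at least 50% of the shorter peak, so that few sites rest on the 1 bp minimum. The extreme cases were SARD1, an activator of salicylic acid synthesis, and AILP1, each with 1 bp shared, and EDA12 with 1287 bp, SAMDC with 1049 bp and BT1 with 906 bp. SAMDC encodes S-adenosylmethionine decarboxylase of polyamine synthesis. Only 118 sites met more than 1 replicate 2 peak.

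Repetition went with strength in replicate 1. Across deciles of its peaks from the weakest to the strongest, 16.1, 16.0, 19.3, 23.0, 29.0, 38.5, 46.0, 56.6, 67.3 and 86.5% met a replicate 2 peak. Sites had a median fold enrichment of 7.45 in that library, and the 9728 peaks found in it alone had 5.20. Even so, strong peaks without a partner existed. They included LHT1, a lysine and histidine transporter (13.7), GLTP2, a glycolipid transfer protein (13.4), and LOG7, a cytokinin-activating enzyme (12.7). Peaks of replicate 2 without a partner included those at CRF3, a cytokinin response factor (5.63), WOL, a cytokinin receptor (5.48), and TIC, a clock regulator (5.36). Depth is not known for either library, and the lists differ in length and in range (2.59 to 17.1 in replicate 1 and 2.25 to 8.75 in replicate 2), so fold enrichments were ranked within a library and not compared between them.

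**Figure D2:**
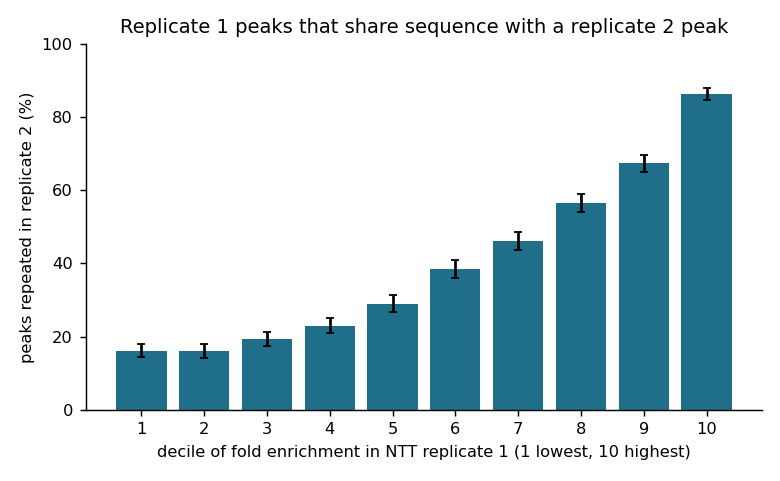
Percent of replicate 1 peaks that met a replicate 2 peak (y axis), by decile of replicate 1 fold enrichment from the weakest to the strongest (x axis), with exact 95% intervals. The share is 16.1% in the weakest decile and 86.5% in the strongest.

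The base composition of a peak moved with repetition too. Across quintiles of replicate 1 peaks by GC content, the repeated share went from 19.3 to 61.5%, while their median fold enrichment was 5.67, 5.90, 6.09, 6.02 and 5.81 in the same order. Among the strongest quintile of peaks it was 54.4% at the lowest GC content and 91.0% at the highest, and among the weakest quintile 4.67 and 31.5%. The part of GC content in which sites were repeated was not tested. Width moved in the same way, from 14.9% of the narrowest quintile to 62.1% of the widest.

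Over the sites, the ranks of fold enrichment in the 2 libraries had a Spearman correlation of 0.439, which is a description over 6439 sites of the same pair of libraries. The first 100 sites of each ranking had 30 in common, and the first 1000 had 434. Among sites with a target, those placed much higher in replicate 1 included CRK19, a cysteine-rich receptor-like kinase (12.3 and 2.52, ranks 271 and 6420), and WRKY60 (12.5 and 2.75, ranks 231 and 6307). On the other side were CGLD27 (3.60 and 5.24, ranks 6354 and 823), FBS1 (4.50 and 5.68, ranks 5909 and 457) and AT5G01720 (3.67 and 5.75), whose peaks shared 27 bp. At AT5G01720 the same replicate 2 peak also met a stronger replicate 1 peak of 11.4 at −114 bp. J20, a plastid chaperone (4.51 and 7.23), likewise shared its replicate 2 peak with a stronger J20 site (9.88), and the 2 sites of the pseudogene AT3G60930 shared 1 replicate 2 peak.

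The sites gathered at transcription start sites, just inside the transcript. The median summit of a site lay at +22 bp, and that of the replicate 1 peaks without a partner at −16 bp. In the first 100 bp of the transcript, 1504 sites (23.4%) and 1315 of the other replicate 1 peaks (13.5%) had their summit. Within 500 bp of a TSS were 66.2% of sites and 50.9% of those peaks. Peaks within 100 bp of a TSS were repeated in 52.7% of cases, those from there to −1500 bp in 33.2%. The first share was the higher in each quintile of fold enrichment, with 32.5 against 16.9% in the second weakest and 85.7 against 70.3% in the strongest.

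**Figure D3:**
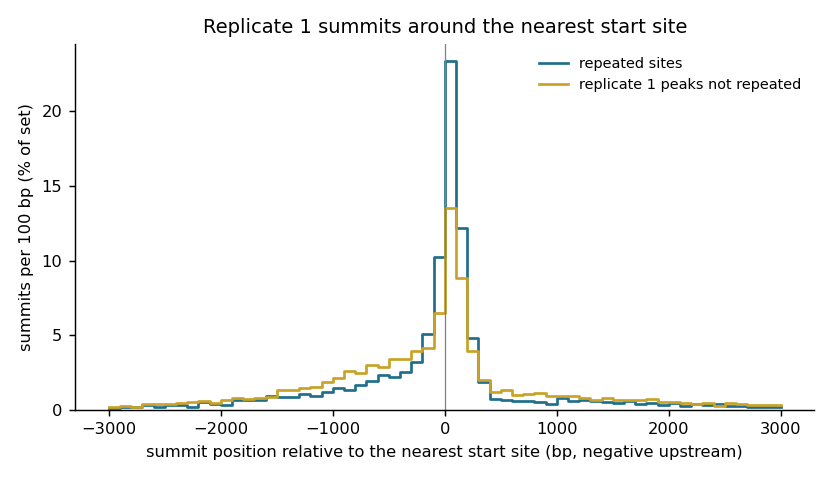
Percent of summits in each bin (y axis) by distance from the nearest TSS in bp (x axis), for the repeated sites and for replicate 1 peaks without a replicate 2 peak. The sites have the higher share just after the start site, where 23.4% of them lie in the first 100 bp.

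By annotation, 46.6% of sites lay in a promoter (the 1000 bp before a TSS), 34.1% in an exon, 1.49% in an intron and 17.8% in intergenic sequence. Classes were given in this order, so an exon base within 1000 bp before any annotated TSS counted as promoter. These classes make up 29.7, 38.6, 13.2 and 18.5% of the nuclear genome. UTRs and coding sequence were counted separately, also where they fell in the promoter class. UTRs held 40.3% of sites and 27.5% of the unrepeated replicate 1 peaks, with 10.6% of the genome. Coding sequence held 11.1% of sites, with 28.3% of the genome. Sites upstream of a pair of divergent protein-coding genes numbered 539 (8.37%), and for these the choice of the nearest TSS leaves out the other gene.

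The GA repeat was the most frequent of the longer motifs under the sites. GAGAGAG was within 100 bp of the summit on either strand at 1893 sites (29.4%, 28.3 to 30.5%), at 16.3% of the unrepeated replicate 1 peaks and at 13.9% of the unrepeated replicate 2 peaks. Windows of the same 201 bp held it in 5.54, 7.41 and 20.8% of all protein-coding genes when centered at −500, −100 and +100 bp, so that position alone changes the background. Within 100 bp of a TSS the motif was at 43.2% of sites and 32.4% of unrepeated peaks, and from there to −1500 bp at 13.5 and 6.66%. It was concentrated under the summit, with 7.68% of sites per 25 bp within 50 bp of it and 0.934% beyond 300 bp. Where only 1 strand held the motif at a start-site site, it read CT on the gene strand in 77.3% of cases, as at WSIP2. Runs of at least 20 bases, like that at AT3G55960 (−78 bp, 10.3 and 4.61), were found at 109 sites (1.69%).

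**Figure D4:**
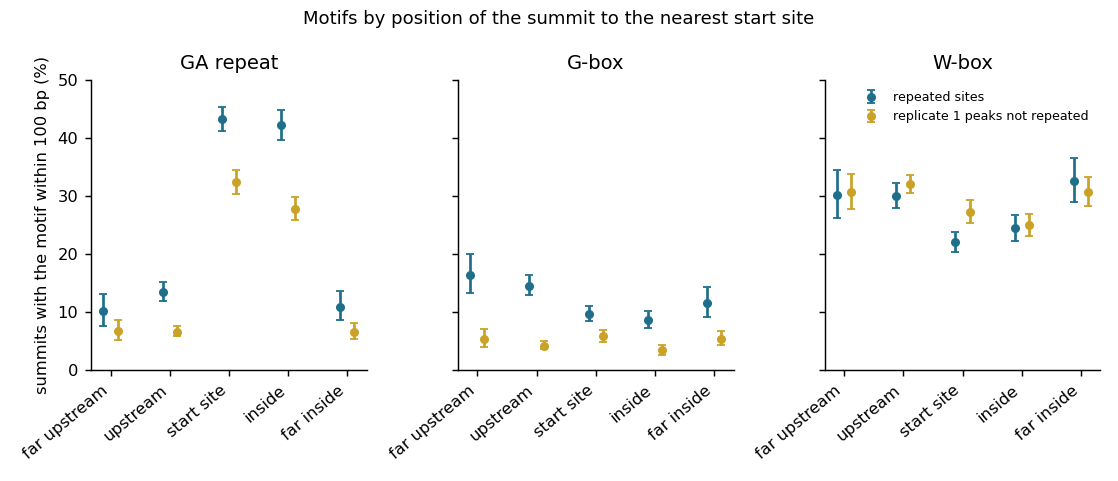
Percent of sites and of unrepeated replicate 1 peaks with each motif within 100 bp of the summit (y axis), by position of the summit relative to the TSS (x axis), with exact 95% intervals. Start-site summits are within 100 bp of a TSS, upstream and inside reach to −1500 and +1000 bp, and the far classes lie beyond. GAGAGAG is at 43.2% of start-site sites and 13.5% of upstream sites, while CACGTG is higher in sites than in the other peaks at each position.

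The G-box CACGTG, bound by bZIP and bHLH factors, was at 738 sites (11.5%, 10.7 to 12.3%), at 4.66% of unrepeated replicate 1 peaks and at 27.8% of unrepeated replicate 2 peaks. All protein-coding genes held it in 2.52, 5.79 and 3.14% of windows at −500, −100 and +100 bp. Upstream of start sites it was at 14.6% of sites and 4.23% of unrepeated peaks. Of the weakest quintile of replicate 1 peaks, 34.1% of those with a G-box and 14.8% of those without were repeated, and of the strongest 90.3 and 75.8%. In the weakest quintile these shares were 36.7 and 14.8% for TGGGCC, 24.7 and 15.6% for GCCGCC and 22.0 and 14.8% for GAGAGAG. For the W-box they were 14.5 and 16.6%. The libraries weighted the G-box unequally, though not this motif alone. Sites were put in quintiles from those placed relatively higher in replicate 2 to those placed higher in replicate 1. In that order, the share with CACGTG was 18.4, 14.5, 11.5, 7.92 and 4.97%. Median GC content moved along with it, from 40.3 to 37.3%. Among sites of above-median GC content the share still went from 22.4 to 7.74%, and among the others from 12.6 to 3.26%. The share with GAGAGAG was 25.6, 28.0, 32.2, 29.4 and 31.8% in these quintiles. Among sites of above-median GC content it went the other way from the G-box, from 30.5 to 44.6%. Among the others it was 18.7% in the first quintile and 23.8% in the last. Other GC-rich motifs moved the same way as the G-box. From the first to the last quintile, TGGGCC went from 13.7 to 5.05% and GCCGCC from 8.54 to 5.36%.

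The W-box, which WRKY factors bind, was at 1698 sites (26.4%, 25.3 to 27.5%) and at 29.2% of the unrepeated replicate 1 peaks. In windows of all protein-coding genes it was at 19.4, 24.2 and 17.0%. It was spread more evenly than GAGAGAG, with 3.35% of sites per 25 bp within 50 bp of the summit and 2.83% beyond 300 bp. Its highest shares flanked the summit, with 4.72% from −75 to −50 bp and 4.44% from +75 to +100 bp. Of the GC-rich motifs, GCCGCC was at 7.50% of sites and 3.98% of the unrepeated replicate 1 peaks, and the TCP element at 9.05 and 3.64%. All protein-coding genes held GCCGCC in 1.86, 1.60 and 5.79% of windows at −500, −100 and +100 bp. For the TCP element these shares were 3.53, 12.5 and 3.75%, so at −100 bp it was more frequent than at the sites. At the unrepeated replicate 2 peaks these 2 motifs were at 10.9 and 25.9%. None of the GA repeat, the G-box core and the W-box was found at 2169 sites (33.7%), among them the TEM1 site at −1728 bp.

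Genes that the study names with NTT binding were mostly among the targets. KAN had 2 sites, at +207 bp (14.1 and 6.16, ranks 66 and 229) and −609 bp (10.4 and 5.15), both with GAGAGAG. ABO3, a WRKY gene of ABA responses, had sites at −163 bp (12.6 and 4.45) and −1262 bp (10.7 and 5.15). BLH4, a BEL1-like homeodomain gene, had 1 site at +14 bp (12.6 and 3.58), and JAZ8, a jasmonate repressor, 1 at +59 bp (11.03 and 3.73). ULT1, a trithorax-group gene, had a weaker site at +270 bp (6.53 and 3.38) with summits 162 bp apart. JAZ5 was no target, as its peak at +727 bp (6.58) was in replicate 1 alone. None of the 6 WIP genes was a target, and NTT itself had 1 peak of 2.68 at +295 bp in replicate 2 alone.

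Gene groups are read against the 15.9% of all protein-coding genes that were targets. The circadian clock list had the highest share of the 30 lists, with 14 of 22 genes (63.6%). Among these were GI, which links the clock to flowering (−927 bp, 11.5 and 7.48), the pseudo-response regulators PRR3 (−1 bp, 10.0 and 6.06), PRR5, PRR7 and PRR9, the MYB-like RVE2 (+47 bp, 12.3 and 4.84) and LHY (4.19 and 3.99). Light signalling genes followed with 16 of 28 (57.1%). They included the phytochrome-interacting factor PIF3 (2 sites, the better at +38 bp, 14.1 and 5.57), PIF1 (annotated PIL5, 10.8 and 6.39), the photoreceptors PHYB (7.94 and 5.95) and CRY1 (8.38 and 5.20), and CRY2. The B-box factors, many of which act in the same pathway, had 16 of 31 (51.6%), with BBX21 at +276 bp (11.99 and 5.69).

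**Figure D5:**
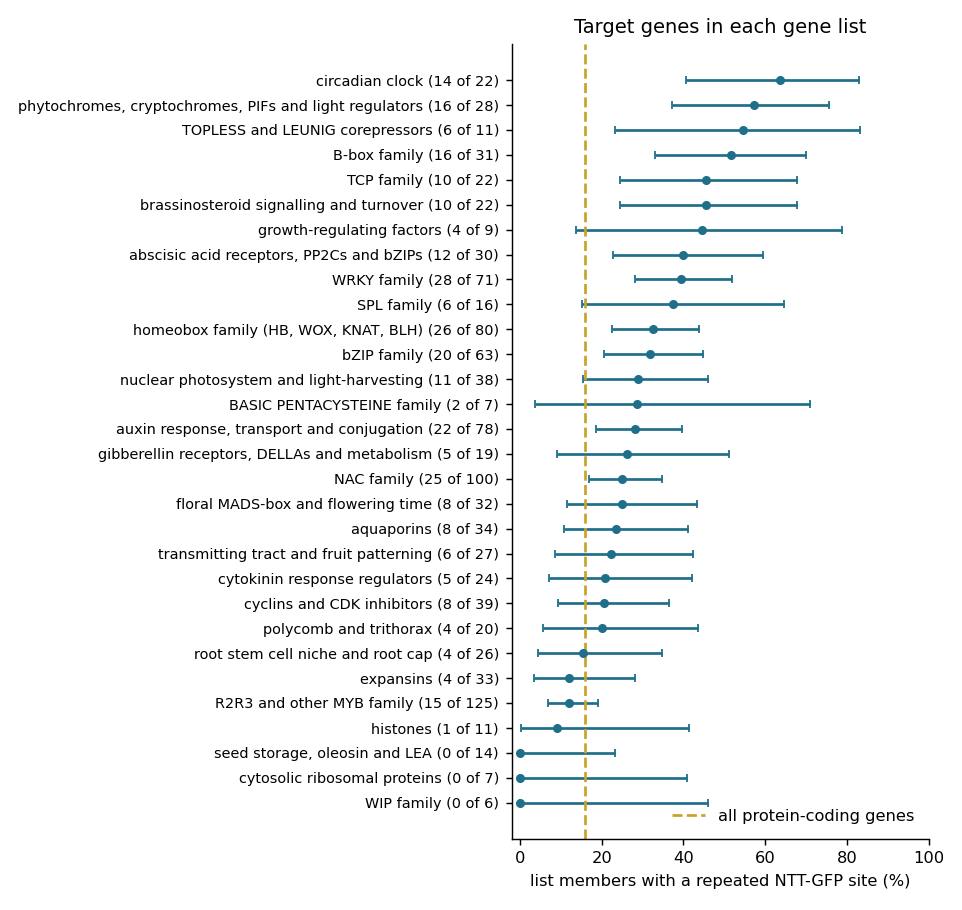
Percent of the genes of each list that were targets of a repeated site (x axis), by list (y axis), with exact 95% intervals and the share of all protein-coding genes, 15.9%, as a line. Clock genes are highest at 63.6%, and the seed storage, ribosomal protein and WIP lists have no target.

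Co-repressors of the TOPLESS and LEUNIG groups were targets in 6 of 11 cases (54.5%), with median fold enrichments of 9.78 and 5.25, against 7.54 and 4.03 over all protein-coding targets. WSIP2, TPR1 (−15 bp, 12.1 and 5.80), TPR2 (+42 bp, 8.89 and 5.17) and TPL (+30 bp, 10.2 and 3.99) all lay near the start site, and SEU and SLK2, partners of LEUNIG, completed the 6. GAGAGAG was at the best site of 5 of them. Of 4350 protein-coding targets, 1572 had it there.

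Among transcription factor families the shares were unequal. TCP factors, regulators of cell proliferation, had 10 of 22 (45.5%), led by TCP14 (+38 bp, 12.7 and 6.44). The growth-regulating factors had 4 of 9, the WRKY family 28 of 71 (39.4%), the SPL family 6 of 16, homeobox genes 26 of 80 (32.5%), bZIP genes 20 of 63 (31.7%) and NAC genes 25 of 100. WRKY6 (2 sites, the better at −1136 bp, 13.7 and 7.26), WRKY4 (12.9 and 6.90) and WRKY7 (+1 bp, 13.6 and 6.37) led their family, and WRKY18 had 3 sites. A W-box was at the best site of 17 of the 28 WRKY targets and of 1091 of all 4350. NAC102 (−21 bp, 13.95 and 7.58) and SOG1, which controls the DNA damage response (12.65 and 6.002), led the NAC genes. The MYB list was lower, with 15 of 125. Targets of any replicate 1 peak were 48 of these 125, beside 8888 of all 27444 protein-coding genes.

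Hormone lists ranged from the brassinosteroid genes down to the cytokinin response regulators. Brassinosteroid genes had 10 of 22 targets (45.5%), with the receptor BRI1 (+310 bp, 10.3 and 4.46), its co-receptor BAK1 (+73 bp, 10.0 and 3.39), the kinase BIN2 (+50 bp, 11.4 and 4.29) and the catabolic enzyme BAS1 (−45 bp, 11.1 and 7.12). ABA genes had 12 of 30, with the receptors PYL4, PYL5 and PYL6, the phosphatases ABI1 (+135 bp, 12.5 and 4.34), ABI2 (+215 bp, 10.4 and 3.52) and HAB1, and the bZIP factor ABI5. For auxin the count was 22 of 78 (28.2%), headed by ARF4 (+117 bp, 15.9 and 6.80) and the conjugating enzyme GH3.5 (annotated WES1, −1077 bp, 14.4 and 8.07). Gibberellin genes had 5 of 19, with the receptor GID1B (+256 bp, 15.5 and 6.01) and the DELLA repressor GAI (9.98 and 4.45). Of the cytokinin response regulators 5 of 24 were targets (20.8%, 7.13 to 42.2%), with RR1 (10.7 and 4.47).

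Lists nearest to the known roles of NTT were closer to the background. Of 27 genes of the transmitting tract and pistil, 6 were targets (22.2%, 8.62 to 42.3%). Targets of any replicate 1 peak were 14 of the 27, beside 8888 of all 27444 protein-coding genes. The 6 with a repeated site were ALC (−2 bp, 7.45 and 4.70), NGA1, BEE3, HEC1 (7.10 and 2.92), CUC1 and SHP1 (6.27 and 2.90), with medians of 6.66 and 3.27. Root stem cell niche genes had 4 of 26 (15.4%): TMO7 (annotated BS1, 8.43 and 4.76), RBR1, the retinoblastoma homologue (−3 bp, 8.14 and 4.69), ARF10 and BDL (annotated IAA12, 7.65 and 4.86). Floral regulators had 8 of 32, including TEM1 and SMZ (−69 bp, 14.8 and 4.53). Polycomb and trithorax genes had 4 of 20, with EMF1 (10.6 and 5.68), VAL1 (annotated HSI2, 13.1 and 4.91), VRN1 and ULT1. BPC1 (7.79 and 5.36) and BPC2, whose family binds GA repeats, were the targets among 7 BPC genes.

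Photosystem and light-harvesting genes had 11 of 38 targets (28.9%), headed by PSBO2 of the oxygen-evolving complex (8.31 and 4.91). Aquaporins had 8 of 34 (23.5%), cyclins and their inhibitors 8 of 39 (20.5%), expansins, which loosen cell walls, 4 of 33 (12.1%) and histones 1 of 11. None of 14 seed storage (0 to 23.2%) and 7 ribosomal protein genes (0 to 41.0%) was a target, and both intervals include the 15.9% of all protein-coding genes. Genes in no list were targets in 15.4% of cases. The lists were chosen with earlier results of these data known, and their genes differ in the length of sequence before the TSS, which goes with being a target: across quintiles of genes by that length the share was 12.1, 14.4, 15.1, 19.04 and 18.6%. The median length was 946 bp for all protein-coding genes and 831.5 bp for clock genes, but 1335.5 bp for the light list, 2345 bp for the co-repressors, 2767.5 bp for brassinosteroid genes, 3029 bp for WRKY, 3161 bp for TCP, 3693 bp for homeobox and 3771.5 bp for auxin genes. The part of this length in the shares of the lists was not tested.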

How the data were processed

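FastQC was used by the authors on the reads, per the study's methods and the notes of the submitters, who mapped them to TAIR10 with BWA, used SAMtools and Picard on the alignments and called peaks per library with MACS2 (2.1.2). The deposited lists give for each peak the authors' fold enrichment (a ratio), score, and −log10 p-value and −log10 q-value. Library depth is not given in the sources used here.

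Overlaps, nearest TSSs, motifs and counts were computed with Python (3.11.15), NumPy (2.4.6), pandas (2.3.3), SciPy (1.17.1) and matplotlib (3.10.9), on the TAIR10.1 RefSeq annotation, and tested on simulated data. A site took its replicate 2 value from its strongest overlapping peak. Peaks were compared as sets and no test was planned.

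Sites, gene lists and named genes were chosen with earlier results of these data known. Named were the 10 sites of best mean rank, the genes with most sites, the largest rank gaps, extreme overlaps, the best sites without a coding target, genes the study names with NTT ChIP, the WIP genes, the best-ranked members of each list, and members needed to account for a list. The miRNA genes, FBS1, AT3G55960 and the strong peaks without a partner were named after their values were seen. Lists were drawn by symbol, and genes of another function by their annotated product were left out. Alternatives were other overlap, threshold, window, annotation and motif settings and each library alone.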

Additional observations from a re-analysis of the deposited data

How the results depend on the processing

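With a −log10 q of at least 20 in both libraries there were 4010 sites with 3141 targets, 186 list members (286 as reported), GAGAGAG at 31.2% and CACGTG at 13.8% of sites, summits 20 bp apart and a rank correlation of 0.400. With replicate 1 reduced to as many of its best peaks as replicate 2 holds, the last 4 of these were 31.6% and 10.3%, 21 bp and 0.393, and with summits inside each other's peaks the distance was 21 bp. From the replicate 2 summits, 48.8% of sites lay in promoters and the GA repeat, G-box and W-box were at 27.9, 13.7 and 27.8% of them. With protein-coding genes only, 42.3% lay in promoters and 61.4% within 500 bp of a TSS. Within 50 bp of the summit the motif shares were 22.7, 5.03 and 11.9%.

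Using all peaks of 1 library, without the other, gave 5533 to 10068 targets, 314 to 486 list members, 45.2 to 49.8% in promoters, 57.0 to 65.8% within 500 bp, GAGAGAG at 21.5 to 26.1%, CACGTG at 7.37 to 15.5% and the W-box at 27.2 to 28.1%. The gene lists under other settings were added after seeing the data. Of 75 values recomputed, 44 moved by less than their interval or by under 1.5 times. No paired analysis was possible because both libraries belong to 1 group.

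With 2 libraries of unknown depth, a replicate 1 peak missing from the replicate 2 list was not shown to be unbound there.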
